A study of Mus musculus with 143 samples.

Results

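Isotype-treated tumours of mouse lines that grow in BALB/c hosts were compared with those of lines that grow in C57BL/6 hosts. The members were chosen by cell line: CT26 (colon), EMT6 and 4T1 (breast) and RENCA (kidney) formed the BALB/c set, with 20 libraries, and MC38 (colon), MB49 (bladder), B16F10 (melanoma) and LL2 and TC1 (lung) formed the C57BL/6 set, with 25. They make up 45 of the 143 libraries of the series, and the 10 isotype libraries of MBT2 and CM3 were left out. The strain of the hosts is not in the labels and rests on general knowledge of these lines. Each library is total RNA from a tumour grown under the skin of the lower flank in a mouse that received a mouse IgG1 isotype control antibody on days 11 and 15 after implantation. They were removed on day 19, given in the labels as 8 days, counted from the first dose. All 9 lines share this schedule, and no further genotype, allele or age of the hosts is given in the labels used here. The labels place 3 of the BALB/c models in the Partial response class and 1 (4T1) in the Resistant class, against 1 High (MC38), 1 Partial (MB49) and 3 Resistant among the C57BL/6 models. Line, tissue of origin and response class therefore differ between the sets together with strain, and their parts in a difference cannot be told apart.

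Inbred strains carry different alleles of many genes. The major histocompatibility complex (MHC), whose class I and class II proteins present peptides to T cells, has the H-2d haplotype in BALB/c and the H-2b haplotype in C57BL/6, and the mouse reference genome is that of C57BL/6. A tumour of a syngeneic line holds cancer cells and host cells of the same strain, so an allele of the strain is carried by both. Processed copies are intronless copies of a messenger RNA that were inserted elsewhere in the genome, and many are nearly identical to the parent gene. A strain can differ from the reference in the sequence of a parent or copy, or in copies that the reference lacks.

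Parent and copy sequences are shown first, because most of the called genes, those that passed the test described below, were such copies. Each stretch is 60 bases of the parent's coding sequence and the matching stretch of its copy, from the GRCm38 genome with GENCODE M21 annotation, written 5′ to 3′ on the gene's strand. Capitals mark the bases at which the members of a pair differ. The parents are Ahcy, which hydrolyses S-adenosylhomocysteine, Kpna2, a nuclear import receptor, Rps2, a protein of the small ribosomal subunit, Gapdh, a glycolytic enzyme, and Hmga1, a chromatin protein.
Ahcy: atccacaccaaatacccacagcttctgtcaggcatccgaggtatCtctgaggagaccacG
Gm4737: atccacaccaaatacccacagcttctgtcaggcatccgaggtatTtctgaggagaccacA
Kpna2: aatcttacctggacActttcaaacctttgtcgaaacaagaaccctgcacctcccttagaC
Gm10184: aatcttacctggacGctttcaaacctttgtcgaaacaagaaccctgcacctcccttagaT
Rps2: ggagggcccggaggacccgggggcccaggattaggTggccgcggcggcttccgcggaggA
Rps2-ps13: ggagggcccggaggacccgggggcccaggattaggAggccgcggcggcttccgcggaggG
Gapdh: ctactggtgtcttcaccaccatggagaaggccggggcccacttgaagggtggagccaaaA
Gm13394: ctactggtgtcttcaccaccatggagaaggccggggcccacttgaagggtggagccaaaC
Hmga1: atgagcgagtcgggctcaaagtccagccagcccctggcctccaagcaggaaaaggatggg
Hmga1b: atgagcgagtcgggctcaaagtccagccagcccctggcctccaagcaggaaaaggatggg

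The Ahcy stretch lies in exons within chr2:155064898-155065567 and the Gm4737 stretch at chr16:46154539-46154598, and the pair differed at 4 of 1296 aligned coding bases. Kpna2 (chr11:106991258-106991317) and Gm10184 (chr17:89909576-89909635) differed at 2 of 1587 bases. Rps2 (chr17:24720300-24720359) and Rps2-ps13 (chrX:52898612-52898671) differed at 8 of 807. Gapdh (exons within chr6:125163016-125163173) and Gm13394 (chr2:28934264-28934323) differed at 1 of 999. Hmga1 (chr17:27559569-27559628) and Hmga1b (chr11:120762889-120762948) were identical over the 219 bases aligned. Reads were 50 bases from each end, so many fragments of a parent match its copy equally well. A fragment assigned to a copy and a transcript made from that copy cannot be told apart in these values.

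Values are FPKM, fragments per kilobase of transcript scaled to the mapped fragments of the library. A model's value for a gene was the mean of log2(FPKM + 1) over its 5 libraries, and a difference is the BALB/c mean of 4 models minus the C57BL/6 mean of 5, on that log2 scale. A gene was called where limma's adjusted p was under 0.05, with the model as the replicate, so these p-values measure the spread between lines. Of 13229 genes tested, 135 were called higher in the BALB/c set (1.02%) and 16 lower (0.121%), 151 in all (1.14%), where 1027 (7.76%) had an unadjusted p under 0.05. The model means did not overlap at all for 292 genes higher in the BALB/c set (2.21%) and for 146 lower (1.10%), 438 in all (3.31%), and this group held all 151 called genes. For 125 of the 151 not a single library of one set reached the range of the other. The median difference over all genes was -0.00. The genes nearest the threshold were Gm14322, at an adjusted p of 0.0496, just inside, and Hist1h4i, at 0.0539, just outside.

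In library measures the sets overlapped. Estimated depth was 16.4 to 23.5 M fragments in the BALB/c libraries and 17.9 to 25.2 M in the C57BL/6 libraries (adjusted p = 0.413 by an exact permutation test over the 9 models, 2-sided). The exact adjusted p was 0.413 for the mitochondrial share, which reached 12.1% in 1 C57BL/6 library, 0.413 for the number of genes at an FPKM of at least 1, and 0.611 for the FPKM total. The smallest p this design allows is 0.0159 before adjustment.

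**Figure D1:**
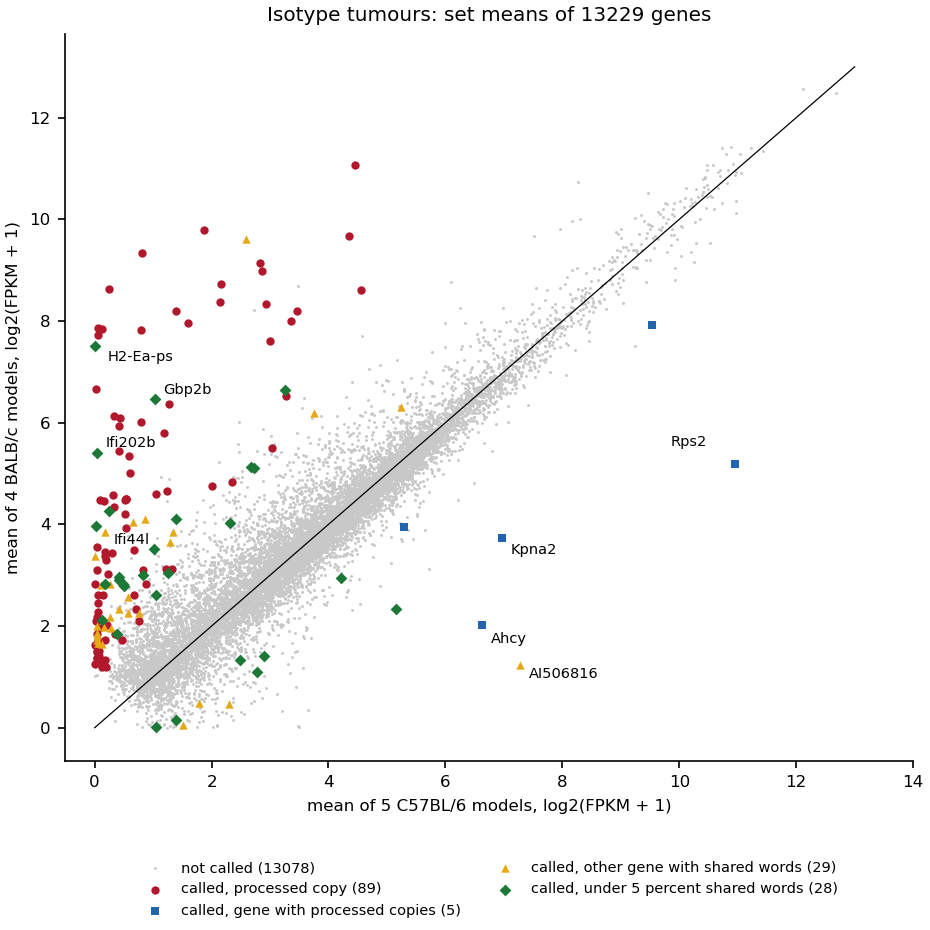
Mean log2(FPKM + 1) of the 5 C57BL/6 models (x axis) and the 4 BALB/c models (y axis) for the 13229 genes tested in isotype tumours, with the line of equal values. Called genes are coloured by how much sequence they share with other genes: the 89 called processed copies all lie above the line and the 5 called genes with processed copies, Rps2, Ahcy and Kpna2 among them, lie below it.

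Processed copies made up most of the genes that were higher in the BALB/c set. Genes were sorted by the share of their 31-base words that also occur in another gene's transcripts. Of 413 processed copies tested, limma called 89 higher (21.5%) and 0 lower, with 130 and 7 at an unadjusted p under 0.05. A gene was tested at a mean FPKM of 1 or more in at least 3 models. A copy near 0 in all C57BL/6 models thus entered only through the BALB/c models, so 21.5% is not a rate among all copies. For Rps2, 43 copies had values, 7 were tested and 2 called. For Rpl29 these counts were 42, 2 and 2, and for Rpl21 51, 5 and 4. The model means did not overlap for 107 copies higher and 5 lower. Of 391 genes with processed copies, limma called 0 higher and 5 lower, with 11 and 31 at an unadjusted p under 0.05. Among the 10413 genes with under 5% of words shared, 21 were called higher (0.202%) and 7 lower (0.0672%). By annotated type, 77 of 271 processed pseudogenes tested and 53 of 12241 protein-coding genes tested were called, under the same filter.

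The copies with the widest separation were those of ribosomal proteins and glycolytic enzymes. Gm15772, a copy of the ribosomal protein gene Rpl26 (chr5:3236431-3236868), had 380, 647 and 1081 FPKM as the lowest, median and highest of the 20 BALB/c libraries, and 0, 0.671 and 3.46 in the 25 C57BL/6 libraries. The difference was 8.52 (SE 0.24, limma adjusted p = 6.87e-08), and no library overlapped. Gm13394, the Gapdh copy shown above, ran from 207 to 1078 FPKM with a median of 438 against 0 to 0.612 with a median of 0.18 (difference 8.38, SE 0.28, limma adjusted p = 1.03e-07). Here too the sets lay apart in every library. Gm10240, Gm13370 and Gm12191, which share all of their words with another copy, differed by 7.80, 7.68 and 7.71. Hmga1b differed by 6.32 and Eno1b, a copy of the glycolytic enolase gene Eno1, by 6.58, both with no overlap.

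Of the genes with processed copies by that definition, the 5 called were all lower in the BALB/c set. Glo1, the parent of the copy Gm13443, falls outside the definition and was called higher (limma adjusted p = 0.0462). Rps2 had 24.9, 36.8 and 53.7 FPKM as the lowest, median and highest BALB/c values and 1104, 2172 and 3383 in the C57BL/6 libraries. Its difference was -5.77 (SE 0.29, limma adjusted p = 1.39e-06), and the highest BALB/c library lay far below the lowest C57BL/6 library. Ahcy ran from 1.39 to 5.87 FPKM in the BALB/c set and from 65.7 to 184 in the C57BL/6 set (-4.61, SE 0.27, limma adjusted p = 4.03e-06). Kpna2 ran from 6.2 to 16.9 against 73.1 to 194 (-3.24, SE 0.18, limma adjusted p = 2.97e-06). All 3 were separated in every library. Itpa, an inosine triphosphatase, fell by 1.35 (limma adjusted p = 0.0127) and Rpl29, a protein of the large ribosomal subunit, fell by 1.61 (limma adjusted p = 0.038), the latter with overlapping libraries.

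FPKM times transcript length was then summed over each parent and its copies, an analysis added after seeing the data. It covered the 57 parents of the 87 called copies that could be paired, 12 of them ribosomal protein genes. The copies' sum was higher in the BALB/c set for all 57, without overlap for 56, while the parent had a lower mean in 47 and was without overlap lower in 11 and higher in 1, Glo1. Median differences were 3.02 for the copies, -0.45 for the parent and -0.23 for the 2 together. For parent and copies together, the model means did not overlap in 5 families: Hspa8, Itpa, Kpna2 and Morf4l1 were lower in the BALB/c set and Glo1, a glyoxalase, was higher. These families were picked through their called copies, so the copies' own counts describe that choice.

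The share of the signal that fell in copies is given for 8 families, chosen after their values were seen. It separated the sets in other families too, among them Rpl29 (medians of 40.1% and 0.347%) and Tdg (34.1% and 0.352%). For Rps2 it was 96.6%, 97.1% and 97.7% as the lowest, median and highest of the BALB/c libraries and 0.740%, 0.916% and 1.20% of the C57BL/6 libraries. For Ahcy the medians were 95.9% and 6.22%, with C57BL/6 libraries from 3.87% to 10.3%, for Kpna2 82.6% and 0.835%, and for Hmga1 70.9% and 0.728%. Psmb5, a catalytic subunit of the proteasome, had medians of 40.0% and 0.189%, Itpa 32.6% and 0.183%, Eno1 28.8% and 0.218%, and Gapdh 22.4% and 0.691%. In all 8 every BALB/c library was above every C57BL/6 library. With parent and copies added, Hmga1 differed by 0.01, Psmb5 by -0.01, Gapdh by -0.40, Ahcy by -0.55, Eno1 by -0.59 and Rps2 by -0.72, and the model means of these 6 overlapped. Rps3a1 was the family whose copies' sum overlapped between the sets by model mean. Its copy share in MB49 was 18.9% ± 1.16 (SD, n = 5), near the 20.2% to 23.7% of the BALB/c libraries. MC38 had 0.746% ± 0.0825 (SD, n = 5). Parents and copies named outside the rule for named genes were chosen after their values were seen.

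**Figure D2:**
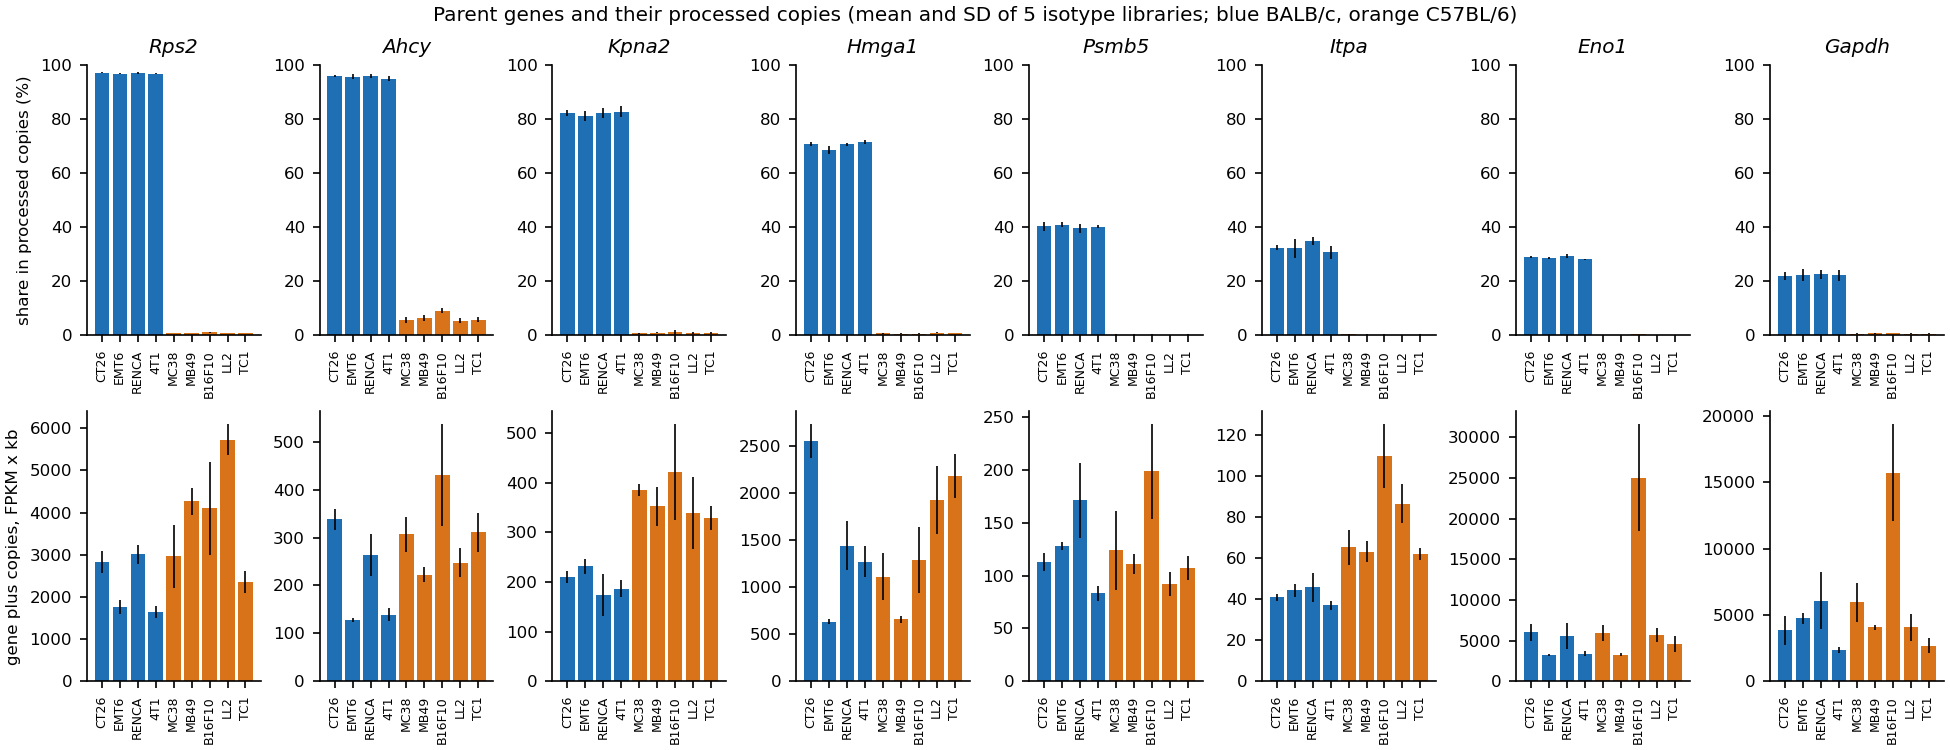
Share of the summed FPKM times length that fell in processed copies (top, percent) and the sum over parent and copies (bottom, FPKM × kb) for 8 gene families in the 9 models. Bars are means of 5 isotype libraries with SD: copy shares of Rps2 are near 97.1% in the BALB/c models and near 0.916% in the C57BL/6 models, while the sums of 6 of the 8 families overlap between the sets.

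Genes with little shared sequence formed the smaller group, led by an MHC class II gene and interferon-induced genes. When limma was run on the 10421 genes with under 5% of words shared alone, an alternative added after seeing the data, 5 were called higher (0.0480%) and 0 lower, with 426 and 178 at an unadjusted p under 0.05. In that group 106 genes were higher (1.02%) and 94 lower (0.902%) without overlap. These 5 were H2-Ea-ps, Ifi44l, Ifi202b, Gbp2b and Arg2, with adjusted p-values of 8.8e-05, 0.000208, 0.00077, 0.0169 and 0.0193. The other 23 called genes of this group lost the call in that fit, so they depend on the full gene table.

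H2-Ea encodes the alpha chain of the class II molecule I-E, which C57BL/6 mice are known not to make, and it is annotated as the polymorphic pseudogene H2-Ea-ps (chr17:34341959-34344645). It had 17.5, 201 and 1113 FPKM as the lowest, median and highest of the BALB/c libraries and was listed at 0 in 21 of the 25 C57BL/6 libraries, with a highest value of 0.0631. By model it was 103 ± 26.5 FPKM in CT26, 182 ± 203 in EMT6, 529 ± 350 in RENCA and 264 ± 85.1 in 4T1 (SD, n = 5 each). The difference was 7.49 (SE 0.44, limma adjusted p = 4.03e-06), with every BALB/c library above every C57BL/6 library. Its partner chain H2-Eb1 and the nearby H2-Aa and H2-Ab1 did not separate the sets. H2-Eb1, the beta chain of I-E, had medians of 245 and 72.1 FPKM, with up to 1155 and 857, and differed by 1.17 (limma adjusted p = 0.933), H2-Aa by 0.89 (0.973) and H2-Ab1 by 0.92 (0.97), with overlap in each. These 3 were lower in the BALB/c set outside the Resistant class (-1.20, -1.44 and -1.33) and higher within it (3.11, 2.86 and 2.85), while H2-Ea-ps was higher in both (7.32 and 7.99). H2-Ea-ps was the 1 called of 10 class II genes tested, where 1.14% of all genes tested were called. Of these 10, 2 were higher without overlap, where 2.21% of all genes were, and the second was not called. The median difference was 1.21.

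Non-classical MHC class I genes, whose products present few or no peptides to ordinary T cells, were called higher in 5 of 14 members tested, where 1.02% of all genes tested were. Their median of 1.73 was 0.21 outside the Resistant response class and 2.35 within it. H2-Q10, a secreted class I protein, had a median of 15.5 and a highest value of 32.1 FPKM in the BALB/c set, and 0, 0.492 and 3.21 as the lowest, median and highest in the C57BL/6 set (3.24, SE 0.37, limma adjusted p = 0.000978). H2-T24 differed by 2.36, H2-Q2 by 1.95, H2-Bl by 1.82 and H2-Q1 by 1.60, and no library of these 5 genes overlapped between the sets. H2-Q4 (2.01, limma adjusted p = 0.63) and H2-T10 (1.82, 0.57) had differences of similar size but overlapped, and H2-Q7 differed by -0.01. The classical class I genes H2-D1 and H2-K1, which present peptides to CD8 T cells, differed by 0.79 and -0.68 with overlap (limma adjusted p = 0.876 and 0.973). The 5 called genes share 6.43% to 32.2% of their words with other genes, and the H-2d alleles differ from the reference, so level and assignment cannot be told apart for them. H2-L, H2-Q8, H2-Q9 and H2-T9 were not analysed here.

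Several interferon-induced genes were called. Ifi202b, of the Ifi200 family of DNA-binding proteins and known to be low in C57BL/6 mice, had 3.32, 52.2 and 91.5 FPKM as the lowest, median and highest in the BALB/c set and at most 0.169 in the C57BL/6 set, where 14 of 25 libraries were listed at 0. The difference was 5.38 (SE 0.44, limma adjusted p = 5.8e-05), and no library overlapped. RENCA was the lowest BALB/c model, at 16.7 ± 9.65 FPKM (SD, n = 5). Of 12 Ifi200 genes tested, Ifi202b was the one called, where 1.14% of all genes tested were. Without overlap, 1 of the 12 was higher, Ifi202b, and 1 was lower but not called, where 3.31% of all genes did not overlap. An unadjusted limma p under 0.05 was found for 5 of the 12 (7.76% of all genes). The neighbours of Ifi202b ran in both directions, with Ifi203 at 2.20 and Ifi211 at -0.94, both overlapping, and the median of the list was 0.40.

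Ifi44l, an interferon-stimulated gene (chr3:151758737-151762892), had 6.81, 13.8 and 39.7 FPKM as the lowest, median and highest BALB/c values, and 20 of 25 C57BL/6 libraries were listed at 0 with the highest at 0.124. It differed by 3.94 (SE 0.27, limma adjusted p = 1.08e-05) and was separated in every library. Gbp2b, a guanylate-binding GTPase that acts against intracellular pathogens (chr3:142594847-142619179), ran from 38.2 to 419 FPKM with a median of 87.0, against 0 to 14.6 with a median of 0.0878 (5.43, SE 0.64, limma adjusted p = 0.00115). Within the C57BL/6 set it was present in MC38 at 6.46 ± 4.66 and MB49 at 3.67 ± 0.561 FPKM (SD, n = 5) and near 0 in the other 3 models. Its neighbour Gbp2 overlapped between the sets, with 82.4 to 600 FPKM in the BALB/c libraries and 2.11 to 181 in the others (2.25, limma adjusted p = 0.471). Outside the Resistant class Gbp2 differed by 0.43 and Gbp2b by 4.03.

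The 250 bases before the annotated start of Gbp2b, from RefSeq on GRCm38.p6 (chr3:142594597-142594846), are printed below. Of the windows of Gbp2b, Ifi44l and Ifi202b, it is the one that held a match to the motif named next. Capitals mark the 1 match to GAAANNGAAA, a spacing typical of interferon response elements, found here on the other strand.
Gbp2b: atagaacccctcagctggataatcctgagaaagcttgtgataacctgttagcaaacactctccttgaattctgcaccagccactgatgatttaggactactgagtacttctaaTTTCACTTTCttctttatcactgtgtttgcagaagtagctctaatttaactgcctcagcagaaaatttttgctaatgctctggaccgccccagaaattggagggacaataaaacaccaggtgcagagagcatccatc

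Both strands were searched in windows of 300 bases, and 1131 of 32851 promoters (3.44%) held the motif. The windows of Ifi44l and Ifi202b had 0 matches, which says only that these letters are not in them. All of these are sequences of the C57BL/6 reference, and no BALB/c sequence was read.

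Of 11 guanylate-binding protein genes, 2 were called higher, where 1.02% of all genes were, and 4 did not overlap, where 3.31% of all genes did not. Their median was 1.97, with 0.43 outside the Resistant class and 2.98 within it. The second call was Gbp10 (1.99, limma adjusted p = 0.0121), which shares 89.8% of its words with another gene and whose libraries overlapped. Trim34b, of the TRIM family of antiviral factors, ran from 1.07 to 4.78 FPKM against 0 to 0.186 (1.82, SE 0.23, limma adjusted p = 0.00168) and was the 1 called gene of 33 antiviral genes tested. Of these 33, 7 were higher and 1 lower without overlap (3.31% of all genes in either direction), and 13 had an unadjusted limma p under 0.05 (7.76% of all genes). Trim12a was nearly absent in the BALB/c set, at most 0.107 FPKM against 0.0836 to 10.3, but did not pass the test (-2.06, limma adjusted p = 0.15), and was chosen after its values were seen. All 11 immunity-related GTPase genes tested had an unadjusted limma p under 0.05 and 0 were called. Their median was 1.56, with 0.44 outside the Resistant class and 2.67 within it. The 1 without overlap, Gvin1, was lower in the BALB/c set (-1.73) and was chosen after its values were seen.

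The remaining calls among genes that share words were mostly members of gene families with a close neighbour, and they were chosen after their values were seen. Chromosome 17, which holds the MHC, had 16 higher calls among 676 genes tested, where 1.02% of all genes tested were called higher. They include the Kpna2 copy Gm10184. Chromosome X had 8 among 405 and chromosome 5 had 14 among 847. On chromosome 17, Gm8909, which shares 23.4% of its words with H2-Q7 and other genes, had 8.14, 12.3 and 26.4 FPKM as the lowest, median and highest BALB/c values and at most 0.618 in the C57BL/6 set (3.67, SE 0.27, limma adjusted p = 2.51e-05). Gm10499 (2.69) and the class I pseudogene H2-T-ps (1.49) were also called, each without overlap of libraries. Gm43302, all of whose words occur in Gbp6 or other genes, ran from 6.03 to 57.1 FPKM against 0 to 3.70 (3.38), while Gbp6 itself differed by 0.25 (limma adjusted p = 0.997). Gm49342, with 96.0% of its words shared with the purine nucleoside phosphorylase gene Pnp and others, had a BALB/c median of 9.82 FPKM against values of at most 1.34e-10, which are fragments divided by estimation. C1rb, a copy of the complement protease gene C1ra, differed by 1.76, the serine protease inhibitor genes Serpina1b, Serpina3h and Serpina3i by 1.60, 1.93 and 1.91, and the tissue kallikrein gene Klk1 by 1.52. Gm26825, a long non-coding RNA gene on chromosome 5, had at least 615 FPKM in the BALB/c set and at most 42.7 in the C57BL/6 set (7.02, SE 0.33, limma adjusted p = 8.79e-07). Sequence assignment and level cannot be told apart for these genes either.

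**Figure D3:**
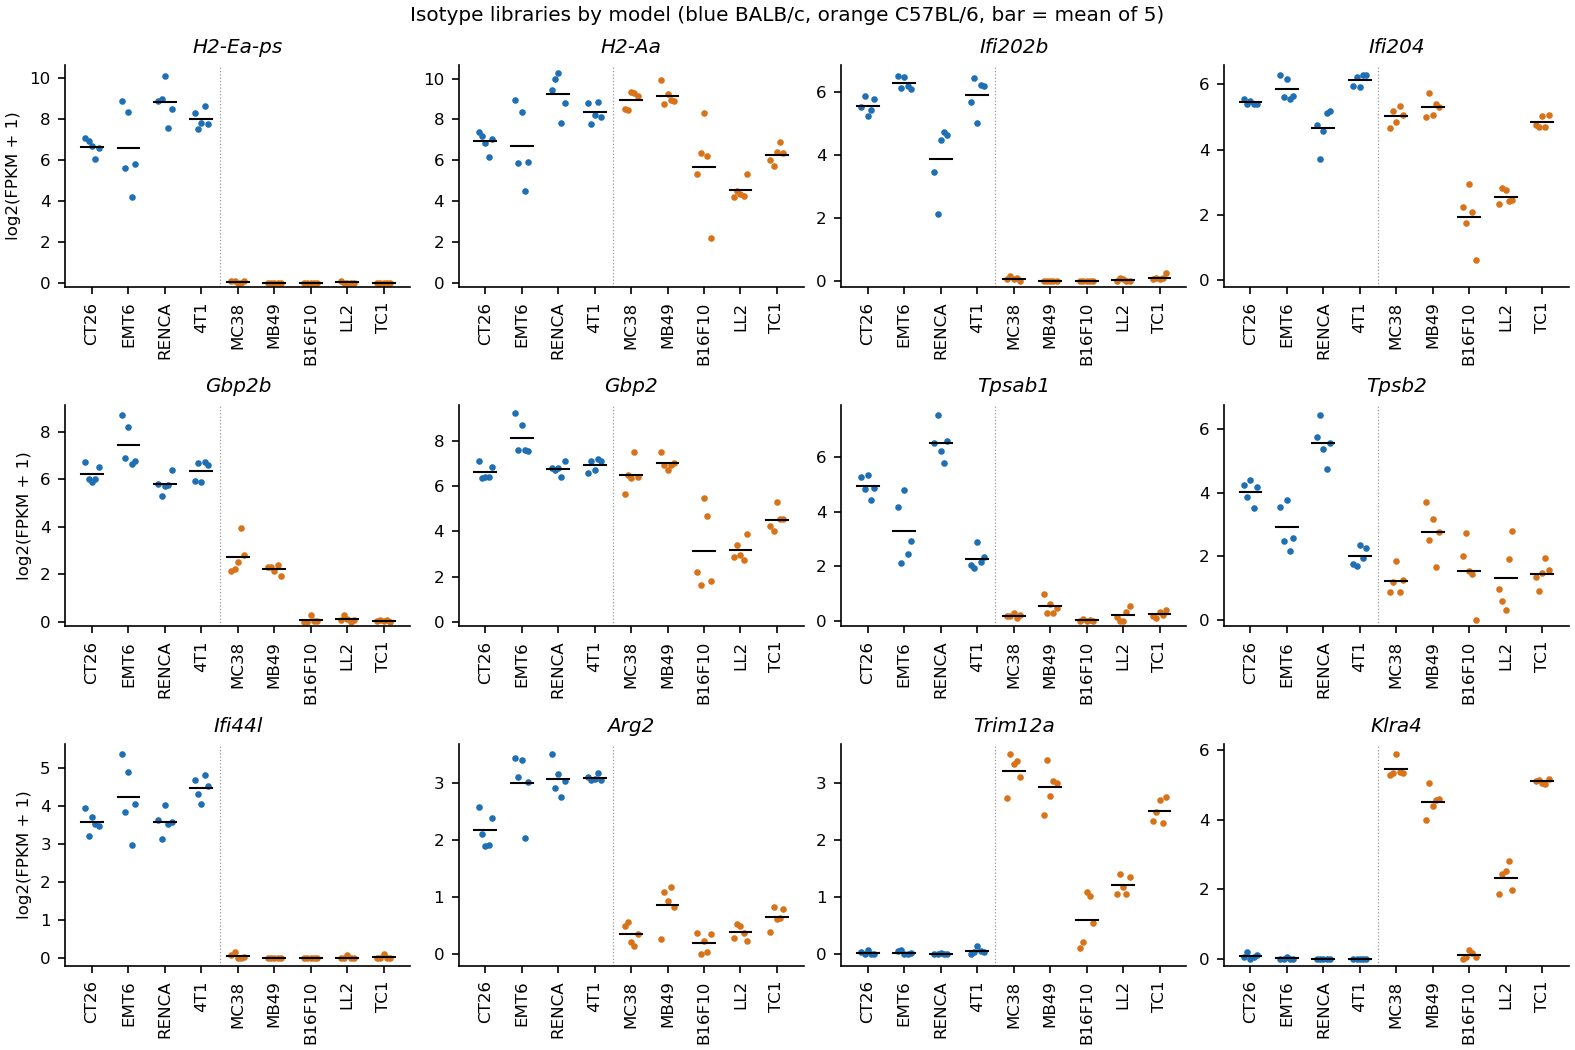
Log2(FPKM + 1) of 12 genes in each isotype library by model, blue for BALB/c and orange for C57BL/6 models, with a bar at the mean of 5 libraries. H2-Ea-ps, Ifi202b, Ifi44l and Tpsab1 are near 0 in the C57BL/6 models, and Klra4 is near 0 in the BALB/c models and in B16F10, while H2-Aa, Ifi204, Gbp2 and Tpsb2 overlap between the sets.

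Tpsab1, Arg2, Rarres2, Dnmbp and Cxcl11 were also called. Tpsab1, a mast-cell tryptase that C57BL/6 mice are known to lack, had 2.79, 23.8 and 187 FPKM as the lowest, median and highest in the BALB/c set and 0, 0.13 and 1.00 in the C57BL/6 set (4.03, SE 0.72, limma adjusted p = 0.0222). RENCA was highest at 100.2 ± 51.2 and 4T1 lowest at 3.97 ± 1.42 FPKM (SD, n = 5), and no library overlapped. The mast-cell list, which leaves Tpsab1 out, had a median of 1.74 over 5 members, with 0 called by limma and 4 at an unadjusted p under 0.05. Tpsb2 differed by 1.98, Cma1 by 1.90, Cpa3 by 1.74 and Mcpt4 by 1.68. The level of that list ran from 1.62 to 4.24 in the BALB/c models and from 1.01 to 2.27 in the C57BL/6 models, and its part in the Tpsab1 difference was not tested. In bulk tumours, fewer cells of a type and less RNA per cell cannot be told apart.

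Arg2, the mitochondrial arginase, ran from 2.70 to 10.3 FPKM with a median of 7.22 in the BALB/c set and from 0 to 1.27 with a median of 0.308 in the C57BL/6 set (2.34, SE 0.28, limma adjusted p = 0.00127). CT26 was the lowest BALB/c model at 3.59 ± 0.977 FPKM (SD, n = 5), and its lowest library was still above the highest C57BL/6 library. Rarres2, which encodes the chemoattractant chemerin, had medians of 87.4 and 8.79 FPKM, with up to 326 and 46.3, and these libraries overlapped (3.39, limma adjusted p = 0.044). Dnmbp, a scaffold protein that activates the GTPase Cdc42, had medians of 14.5 and 4.09 FPKM, and no library overlapped (1.70, SE 0.25, limma adjusted p = 0.00609). Cxcl11, a ligand of the T-cell receptor CXCR3 whose C57BL/6 allele is known to be disrupted, was called (2.28, SE 0.38, limma adjusted p = 0.0138), although libraries overlapped. The other CXCR3 ligands Cxcl9 (2.26, 0.627) and Cxcl10 (0.13, 0.997) were not called. Tpsab1, Rarres2, Dnmbp and Cxcl11 lost the call among genes with little shared sequence alone, at limma adjusted p-values of 0.132, 0.231, 0.0555 and 0.11.

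Further genes with little shared sequence were called higher, also chosen after their values were seen, and every one of them lost the call among such genes alone. Hal, the histidine ammonia-lyase of skin and liver, had 2.41, 5.84 and 17.8 FPKM as the lowest, median and highest BALB/c values against 0, 0.118 and 2.04 (2.48, SE 0.36, limma adjusted p = 0.00568). Jaml, an adhesion receptor of leukocytes, had medians of 11.5 and 1.18 FPKM (2.50, SE 0.37, limma adjusted p = 0.00633), with some libraries overlapping. Ctse, the aspartic protease cathepsin E, ran from 1.34 to 27.9 FPKM, with medians of 3.29 and 0.069, against at most 0.32 in the C57BL/6 set (limma adjusted p = 0.00472). Cathepsin E and Hal were separated in every library. The chemokine gene Cxcl14 (2.39), the Ras-like gene Rerg (2.54), the neuronal enolase gene Eno2 (2.47), Dennd2d (2.18) and the haematopoietic transcription factor gene Lyl1 (1.55) had overlapping libraries, and Abhd1 (1.78), 2310030G06Rik (2.65) and A230050P20Rik (2.72) did not overlap. Eno2 is a separate gene from Eno1, sharing 0.705% of its words with other genes.

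Genes lower in the BALB/c set without a family of copies were few. Chd9, a chromatin remodeller, ran from 0.432 to 8.24 FPKM with a median of 3.99 in the BALB/c set and from 10.4 to 94.7 with a median of 26.3 in the C57BL/6 set (-2.83, SE 0.52, limma adjusted p = 0.0268). The libraries did not overlap, and MB49 was highest at 83.7 ± 6.59 (SD, n = 5). Ppp1r3e, a glycogen-targeting subunit of protein phosphatase 1, fell by 1.67, the orphan receptor Gpr19 fell by 1.48, Pop4, a subunit of ribonuclease P, fell by 1.26, and the apolipoprotein gene Apoa2 fell by 1.05, with limma adjusted p-values of 0.0485, 0.044, 0.022 and 0.0496. Apoa2 was listed at 0 in 19 of 20 BALB/c libraries and had 0.524 to 3.41 FPKM in the C57BL/6 libraries. All 5 lost the call among genes with little shared sequence alone (limma adjusted p from 0.117 for Pop4 to 0.306 for Apoa2).

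Other genes separated the sets without a call. Vill differed by -2.65, Srd5a1 by -1.95, Itgb3bp by -1.34, Cd300ld4 by -1.24 and Sfxn2 by -1.12, with limma adjusted p-values of 0.422, 0.285, 0.0542, 0.0679 and 0.058. The predicted gene AI506816 had at most 3.79 FPKM in the BALB/c set and at least 87.9 in the C57BL/6 set (-6.05, SE 0.35, limma adjusted p = 3.34e-06). E030030I06Rik (-1.83), A730017L22Rik (-1.45), Gm14322 (-1.31) and 2810001G20Rik (-1.16) were called lower by less.

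The natural killer gene complex encodes the Ly49 receptors, whose number differs between strains. Klra4, an activating Ly49 receptor, was listed at 0 in 15 of 20 BALB/c libraries, with a highest value of 0.138 FPKM. It was 43.0 ± 8.2 FPKM in MC38, 33.3 ± 1.2 in TC1, 22.6 ± 6.43 in MB49 and 4.13 ± 1.36 in LL2 (SD, n = 5), but 0.0777 ± 0.0778 in B16F10. The NK-cell list was lowest of all models in B16F10, at 0.25. It was 0.39 in LL2, 0.88 in TC1, 1.79 in MC38 and 2.35 in MB49, which is not the order of Klra4, and its part was not tested. For Klra4 the model means did not overlap, the libraries did, and the difference of -3.47 did not pass the test (limma adjusted p = 0.238). Of 12 genes of the complex tested, limma called 0, with 2 at an unadjusted p under 0.05 (7.76% of all genes tested). Without overlap, 1 was higher (Klrk1, 1.37) and 1 lower (Klra4), where 3.31% of all genes did not overlap in either direction. The median was 0.60.

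Most genes tested at other loci known to differ between strains overlapped between the sets. Of 10 genes with textbook strain alleles, H2-Ea-ps and Ifi202b were called, where 1.14% of all genes tested were. The list level, with those 2 included, ran from 3.37 to 3.97 in the BALB/c models and from 1.26 to 2.95 in the C57BL/6 models. The other 8 overlapped, among them Mx1, an antiviral GTPase (0.85), Slc11a1, a phagosomal metal transporter (0.49), and Ly6a, which encodes Sca-1 (1.62). Another was Ighg2c, the C57BL/6 form of an immunoglobulin heavy chain gene (-0.58). All 8 Ly6 genes, all 8 Slam-family genes and all 3 NKG2D ligand genes tested overlapped, with medians of 0.67, 0.66 and -0.57, where 0, 1 and 1 had an unadjusted limma p under 0.05 and 0 were called. Among 30 paired myeloid receptor genes limma called 0, with 6 at an unadjusted p under 0.05, where 7.76% of all genes tested were. Siglec1, a sialic acid receptor of macrophages, did not overlap higher (1.42, limma adjusted p = 0.0657), nor did Cd300ld4 lower. Fcgr1, the high-affinity receptor for immunoglobulin G, was the 1 of 8 Fc receptor genes without overlap (1.42, limma adjusted p = 0.293). Of all genes tested, 3.31% did not overlap in either direction. Siglec1 and Fcgr1 are named because of their values. The symbols Ighg2a, H60a, Raet1a, Raet1b, Raet1c, Nnt and Asip were not analysed here.

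Several lists of immune function had higher medians in the BALB/c set, and these moved with response class. Medians over members were 1.15 for class I processing, 0.95 for antiviral genes, 1.22 for CD8 T cells and cytotoxicity, 0.80 for T cells and 0.94 for macrophages and monocytes, beside -0.00 for all genes. Outside the Resistant class they were -0.11, 0.25, 0.21, 0.26 and 0.57. Within it, 4T1 against B16F10, LL2 and TC1, they were 2.16, 1.59, 1.70, 1.03 and 1.29. Not all immune lists ran this way: the median was -0.57 for NKG2D ligands and 0.05 for classical class I genes. Outside the Resistant class it was -1.32 for classical class I, -1.14 for immunoglobulin constant and -0.88 for class II genes. Within that class these 3 lists had 0.89, 0.62 and 3.07. The strain and class parts were not tested.

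Over the 16 lists of cell types, 0 of 130 members tested were called. Of these members, 36 had an unadjusted limma p under 0.05, where 7.76% of all genes tested did. Without overlap, 8 were higher and 0 lower (6.15%, against 3.31% of all genes in either direction). Members of a list share cells, so these counts are not independent. The macrophage and monocyte list was the widest apart, with list levels of 6.09 to 6.38 in the BALB/c models and 4.05 to 5.89 in the C57BL/6 models. The proliferation list had a median of -0.44. Pdcd1, which encodes PD-1, differed by 1.13, Cd274, which encodes its ligand PD-L1, by 1.23 and Cd8a by 1.22, with overlap and limma adjusted p-values of 0.582, 0.643 and 0.666. Outside the Resistant class they differed by 0.41, 0.07 and 0.11.

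**Figure D4:**
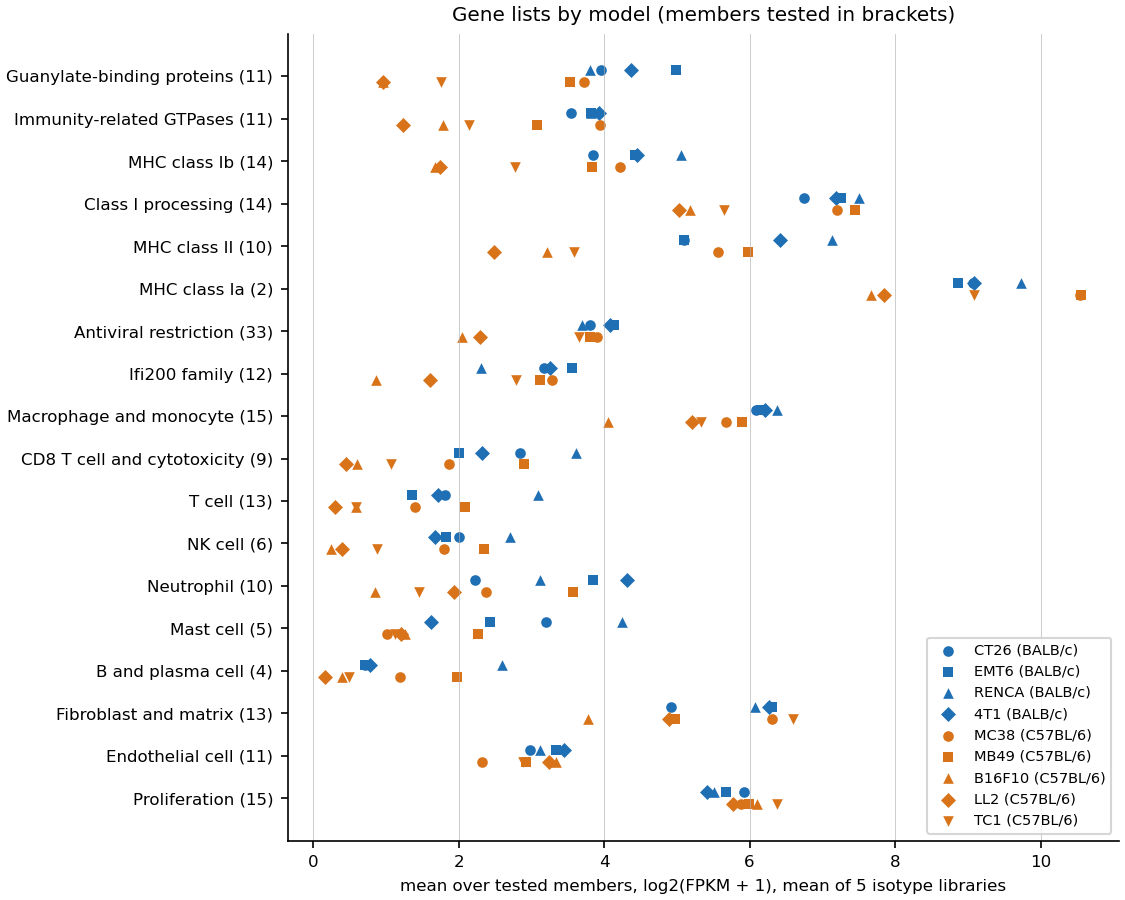
Mean log2(FPKM + 1) over the tested members of 18 gene lists (members tested in brackets) in each of the 9 isotype models, blue for BALB/c and orange for C57BL/6, with a shape per model. The macrophage and guanylate-binding lists do not overlap between the sets, while most others do, with B16F10, LL2 and TC1 at the low end of the immune lists.

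The same lines were also sampled before treatment (baseline, 3 tumours a model) and after muDX400, a mouse antibody against PD-1 (5 tumours a model). These are other tumours of the same lines, so they repeat the measurement and not the choice of lines. At baseline 145 genes were called higher (1.06%) and 12 lower (0.0879%) of 13659 tested, and after muDX400 130 higher (0.974%) and 17 lower (0.127%) of 13344. Of the 151 isotype calls, 144 (95.4%) did not overlap in the same direction at baseline and 145 (96.0%) after muDX400, where 3.42% and 3.07% of all genes tested did not overlap in either direction, and 120 were called in all 3 arms. They made up 79.6% of the baseline calls and 91.2% of the muDX400 calls. All 151 had the same sign in both arms, with median ratios of size of 0.998 and 1.00. At baseline Gm7278, E030030I06Rik, Cxcl14, Gm49342, H2-T24, Gbp10 and Rarres2 overlapped, and after muDX400 Apoa2, Gm13408, Dennd2d, Gbp10, Lyl1 and A230050P20Rik did.

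**Figure D5:**
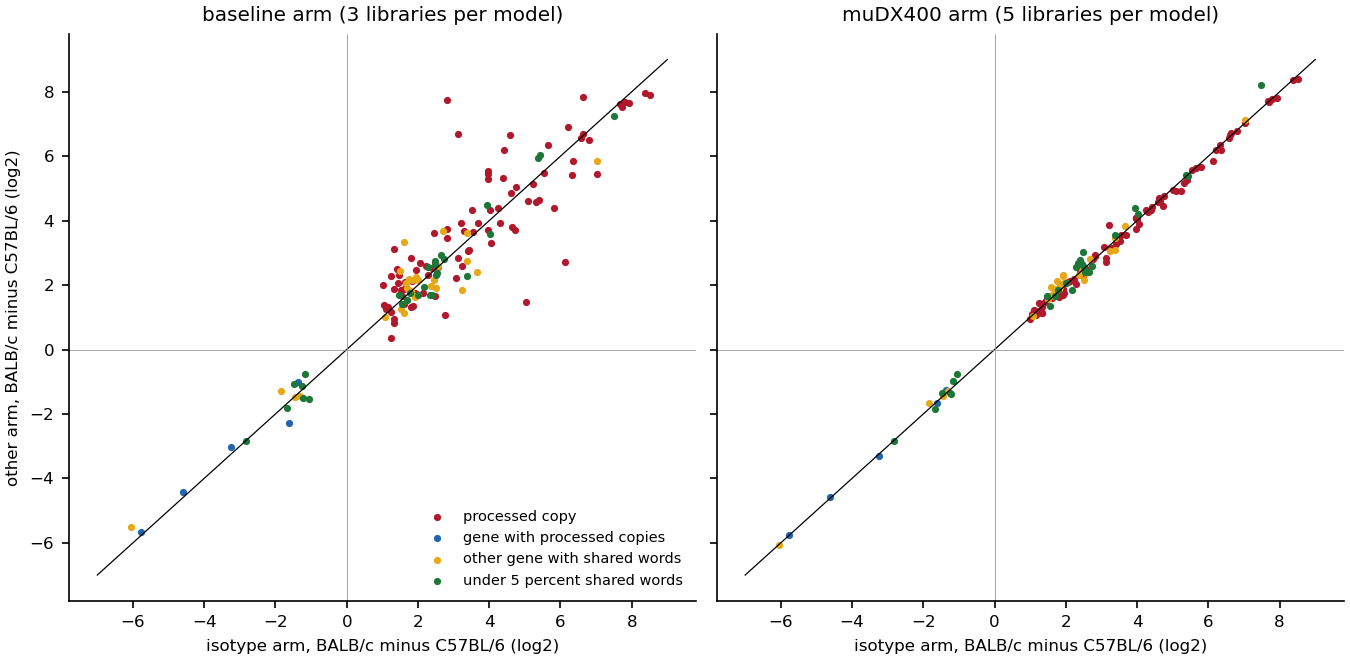
Difference between the sets (BALB/c minus C57BL/6, log2 scale) of the 151 genes called in isotype tumours (x axis) against the same difference in baseline and muDX400 tumours (y axes), with the line of equal values and colours by shared sequence. All 151 points keep their sign in both arms, and the spread about the line is wider at baseline, with 3 libraries per model, than after muDX400, with 5.

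The sample numbers in the labels fall into 3 ranges, each with models of both sets. The 151 called genes do not overlap over the 9 models, which fixes their direction in any such split, so only sizes are given. The median size was 2.61 for EMT6 against MC38, LL2 and TC1, 2.46 for CT26 and 4T1 against MB49, and 2.85 for RENCA against B16F10. For the pair of colon lines, CT26 against MC38, it was 2.51, the smallest being Serpina3h at 0.27. H2-Ea-ps differed by 6.60 in that pair, Ifi202b by 5.51, Gbp2b by 3.51, Rps2 by -5.19 and Ahcy by -4.17. These splits hold models used in the calls and so describe them without testing them again.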

How the data were processed

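The authors deposited FPKM (fragments per kilobase of transcript, scaled to mapped fragments) for 54232 gene identifiers in 143 libraries. Of the aligner, quantifier, build and annotation nothing is stated: not given in the sources used. Per the labels' protocols, RNA was depleted of ribosomal RNA and made into stranded libraries, sequenced as 50 base paired-end reads. Each column took its sample from the number in the label's description, and 0 columns went unused. Depth was read from the size of a single fragment's step among low values, and its 16.4 to 25.2 M fragments limit the precision of low genes. FPKM carry no counts, so no counting interval is given.

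Values were averaged as log2(FPKM + 1) over 5 libraries per model, which understates changes of low genes. The genes tested had a mean FPKM of 1 or more in 3 or more of the 9 models. The test was limma's (version 3.58.1, R 4.3.3) with a trend in the prior variance, 2-sided, and p-values were adjusted by Benjamini-Hochberg over all of these genes. The scripts were tested on simulated data. Each library was taken to be a separate tumour. Members, lists and rules were chosen with earlier results of these data known. Named genes were the 15 widest gaps between model means in each direction among called genes (filled by uncalled genes without overlap), the 5 widest among predicted genes and pseudogenes, called list members, members of strain-polymorphic lists, and Pdcd1, Cd274 and Cd8a. Shared sequence was the share of 31-base words of a gene's GENCODE M21 transcripts found in another gene, and processed copies were annotated processed pseudogenes, or genes of 1 or 2 exons with at least 20% of their words in a protein-coding parent of 3 or more. Symbols were matched to the GRCm38 annotation. Replicate numbers are only names here, and no pairing was assumed.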

Additional observations from a re-analysis of the deposited data

Results flagged for a closer look

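Among the genes named, 74 groups of 4 or 5 model means were examined for a single model far from the others, and 5 stood out. Chance gives such a result in about 1 in 20 groups. Arg2 in CT26 was the lowest of the BALB/c models, at a mean log2(FPKM + 1) of 2.17. Srd5a1 in MB49 was the highest C57BL/6 value at 5.59, with the nearest at 3.22. Eno1b in B16F10 was highest at 4.07 against 1.96, and in the same model the sum over Eno1 and its copies was also highest, at 25034 ± 6549 FPKM × kb (SD, n = 5). Gm14322 in MC38 was highest at 2.47 against 1.74, and Gpr19 in B16F10 was highest at 3.60 against 2.82. None of these models lay on the other set's side, which is given, since the model means of these genes do not overlap between the sets.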

How the results depend on the processing

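The main counts were 135 higher and 16 lower calls. With the replicate block they were 135 and 16, which is given by construction, since each model has every number and the block cancels in its mean. Treating libraries as observations with the model as a random effect gave 273 and 119, sharing 139 of its 392 calls with the 151. The sample-number range as a term left 8 lower calls (10 after muDX400), a pseudocount of 0.1 gave 20 lower calls at baseline, and no filter gave 659 higher and 308 lower genes without overlap. Genes with under 5% of words shared, an alternative chosen after seeing the data, gave 5 and 0 calls, with 106 and 94 genes without overlap. The sums over gene families and the split by Resistant class were also chosen after seeing the data and hold no test. With a model left out, higher calls ran from 110 to 143 (EMT6, MB49) and lower calls from 6 (without RENCA, CT26 or 4T1) to 29 (without B16F10). Lower calls were 7 without EMT6, 9 without MC38 or TC1 and 10 without LL2. Genes without overlap then ran from 345 to 580 higher (528 without CT26, 580 without MB49) and from 187 to 329 lower, which fewer models allow by construction. At baseline the ranges were 121 to 151 and 6 to 26 (6 without CT26 or EMT6, 7 without 4T1, 20 without MB49, 26 without B16F10), and after muDX400 105 to 130 and 6 to 24 (6 without RENCA, 7 without EMT6, 9 without 4T1 or CT26, 10 without MC38). With a library left out they were 129 to 138 and 11 to 18, and 277 to 305 and 135 to 160 without overlap. The fewest higher calls came without RENCA isotype replicate 4, and the fewest lower calls, 11, without that library or without B16F10 isotype replicate 4. Median-ratio and quantile scaling kept 143 and 138 of the 151 calls and moved the median of all genes to -0.03 and -0.07. Of 46 named genes, 3 to 13 lost the call with a model left out and 12 with the range as a term. With only the models outside the Resistant class, 5 of the 46 were counted as moved. None of these 46 changed sign in a setting run. For genes without overlap this is fixed when models are left out, so it is no test. Other named genes, whose sets overlap, changed sign outside the Resistant class: H2-Aa (-1.44), H2-Ab1 (-1.33), H2-Eb1 (-1.20), H2-D1 (-0.31), Cxcl9 (-0.06), Cxcl10 (-1.21), Gbp6 (-1.59), Mx1 (-0.24) and Slc11a1 (-0.23) were higher in the BALB/c set over all models. Depth limits what can be said of genes near 0.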

Other observations

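The 2 models left out of the comparison, MBT2 and CM3, were placed beside the sets for the 151 called genes. MBT2 lay on the BALB/c side for 74, on the C57BL/6 side for 43 and between the sets for 34, and CM3 for 52, 32 and 67. H2-Ea-ps was 118 ± 52.1 FPKM in MBT2 and 289 ± 315 in CM3 (SD, n = 5), and Ifi202b was 44.6 ± 11.6 and 52.8 ± 42.0, with these model means within the range of the BALB/c libraries. Ifi44l was 21.5 ± 2.48 FPKM in MBT2 and 0.146 ± 0.117 in CM3. Arg2 had 0.162 ± 0.162 and 0.611 ± 0.749 FPKM, near the C57BL/6 models. Klra4 was 0.00692 ± 0.0155 FPKM in MBT2 and listed at 0 in all 5 CM3 libraries.

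The copy shares of gene families also differed between these models. The share of Rps2 in copies was 70.9% ± 1.20 in MBT2 and 14.8% ± 7.30 in CM3 (SD, n = 5), between those of the sets in both. That of Ahcy was 95.0% ± 0.724 and 5.33% ± 2.04, 1 on each side, and that of Itpa was 0.185% ± 0.258 and 16.3% ± 6.92. Rps3a1 copies took 70.0% ± 1.67 in MBT2, above every library of both sets, and 25.4% ± 3.42 in CM3. The copy shares of Kpna2 (48.3% ± 36.5) and Gapdh (12.4% ± 9.28) varied widely among the 5 CM3 libraries, where those of MBT2 (83.8% ± 1.65 and 22.7% ± 1.07) did not.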
